A study of Mus musculus with 19 samples.

Results

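The 32 genes described here encode the enzymes, carriers and regulators of mitochondrial and peroxisomal fatty acid oxidation. They were taken from a list of gene names for fatty acid activation, the carnitine shuttle, beta-oxidation and PPAR regulation, matched by symbol to the 33919 rows of the expression table. All 32 were found in it, and all 32 passed the filter on low values. Kupffer cells, the macrophages that reside in the liver, were sorted from wild-type female C57BL/6 mice, and their RNA was sequenced in 19 libraries. Chow_EmKCs (n = 6) were embryo-derived Kupffer cells, sorted as CLEC2+ TIMD4+, from mice on chow. MCD_EmKCs (n = 6) were cells of the same gate from mice given an MCD diet over 4 weeks, and MCD_MoKCs (n = 7) were the monocyte-derived CLEC2+ TIMD4- cells of MCD-fed mice. A methionine- and choline-deficient diet, for which MCD is the usual abbreviation, is a common way to produce steatohepatitis in mice. The labels give no animal age and do not say which libraries came from separate animals, and p-values therefore measure only how libraries vary, which may be technical. Origin was assigned from the sort markers alone.

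Fatty acids are first joined to coenzyme A by acyl-CoA synthetases. Long chains then enter mitochondria as carnitine esters through CPT1, the translocase SLC25A20 and CPT2, and the CPT1 step is generally regarded as the main point of control. Inside, repeated rounds of dehydrogenation, hydration, a second dehydrogenation and thiolysis release acetyl-CoA, and the electrons of the first step pass through the electron transfer flavoprotein to the respiratory chain. Peroxisomes run a parallel pathway for very long and branched chains, which they import through transporters of their membrane. The nuclear receptors PPAR-alpha and PPAR-delta, bound as heterodimers with RXR and helped by coactivators such as PGC-1-beta, switch on many of these genes. In macrophages, fatty acid oxidation has been widely studied in relation to alternative activation.

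The sort genes followed the gate. Timd4 had a mean of 10586 normalised reads (reads divided by 1 size factor per library) in Chow_EmKCs, 7491 in MCD_EmKCs and 400.2 in MCD_MoKCs, and Clec1b, which encodes CLEC2, had 6605, 7000.3 and 5140. All 12 Kupffer cell markers examined were detected in every library, but 10 of the 12 were lower in MCD_MoKCs than in MCD_EmKCs (median log2 fold change -0.93), 10 of the 12 were lower in MCD_MoKCs than in Chow_EmKCs (median -1), and 4 were lower and 1 higher in MCD_EmKCs than in Chow_EmKCs. The part of this in the results on MCD_MoKCs was not tested. Total reads ran from 11642240 to 30983487 per library, and 14643 to 16847 genes were detected. MCD_MoKCs 1 to 3 stood apart from the other MCD_MoKCs: their share of reads on mitochondrially encoded genes was 0.534 to 0.729%, against 0.244 to 0.359% in MCD_MoKCs 4 to 7, and each result on MCD_MoKCs below is also given without them where that changes a call. The column names carry library numbers that fall into a set up to 33 and a set from 37, each holding libraries of all 3 groups. The set up to 33 held Chow_EmKCs 1 to 3, MCD_EmKCs 1 to 3 and MCD_MoKCs 1 to 5. That from 37 held Chow_EmKCs 4 to 6, MCD_EmKCs 4 to 6 and only MCD_MoKCs 6 and 7. Fits within a set thus hold few libraries, and a call lost there does not show that the difference is absent. Within-set values are given for the genes among the 32 that passed the test, and counts within the sets for the further lists.

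Most genes of fatty acid oxidation did not pass the test in any of the 3 comparisons. On the MCD diet, 0 of the 32 genes passed in embryo-derived cells. Of all 14875 genes tested, 4.08% passed there (2.5% higher and 1.58% lower in MCD_EmKCs). edgeR and DESeq2 on the recovered reads also called 0 of the 32. At an unadjusted p under 0.05, limma gave 2 of the 32 genes, Acsl4 and Cpt2, against 16.1% of all genes. The libraries of MCD_EmKCs and Chow_EmKCs overlapped for all 32 genes, and 2.96% of all genes tested separated these groups. Shares this small would give few genes of 32, so the counts of 0 do not set the list apart. Between the cell types on the diet, 2 genes passed, Cpt1a and Acsl5, and both were lower in MCD_MoKCs. The background was 10.5% of all genes (5.64% higher and 4.9% lower). Between MCD_MoKCs and Chow_EmKCs, the same 2 genes were lower and Hsd17b4 was higher, against 16.8% of all genes (8.68% higher and 8.08% lower). At an unadjusted p under 0.05, limma gave 4 of the 32 genes in MCD_MoKCs against MCD_EmKCs (23.2% of all genes). In MCD_MoKCs against Chow_EmKCs it gave 10 of the 32 (28% of all genes). These 3 comparisons share their groups and are not independent of each other.

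As a whole, the genes of the list had median changes near 0 in all 3 comparisons. Their median log2 fold change was -0.01 in MCD_EmKCs against Chow_EmKCs, -0.03 in MCD_MoKCs against MCD_EmKCs and -0.00 in MCD_MoKCs against Chow_EmKCs, while the medians of all genes tested were -0.04, 0.02 and -0.01. The median size of the change regardless of sign was 0.18, 0.29 and 0.39 for the 32 genes and 0.37, 0.42 and 0.47 for all genes. Their standard errors were also smaller, with medians of 0.27, 0.26 and 0.26 against 0.39, 0.37 and 0.37. Where a gene did not pass, its 95% interval shows how large a change remained possible. In MCD_EmKCs against Chow_EmKCs, the interval stayed within 1 log2 unit of 0 for 23 of 32 genes, and in either comparison of MCD_MoKCs it did so for 22 of 32. The intervals of Acsl3, Ehhadh, Ppara and Pdk4, which are among the genes with the lowest levels, extended beyond that bound in all 3 comparisons.

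**Figure D1:**
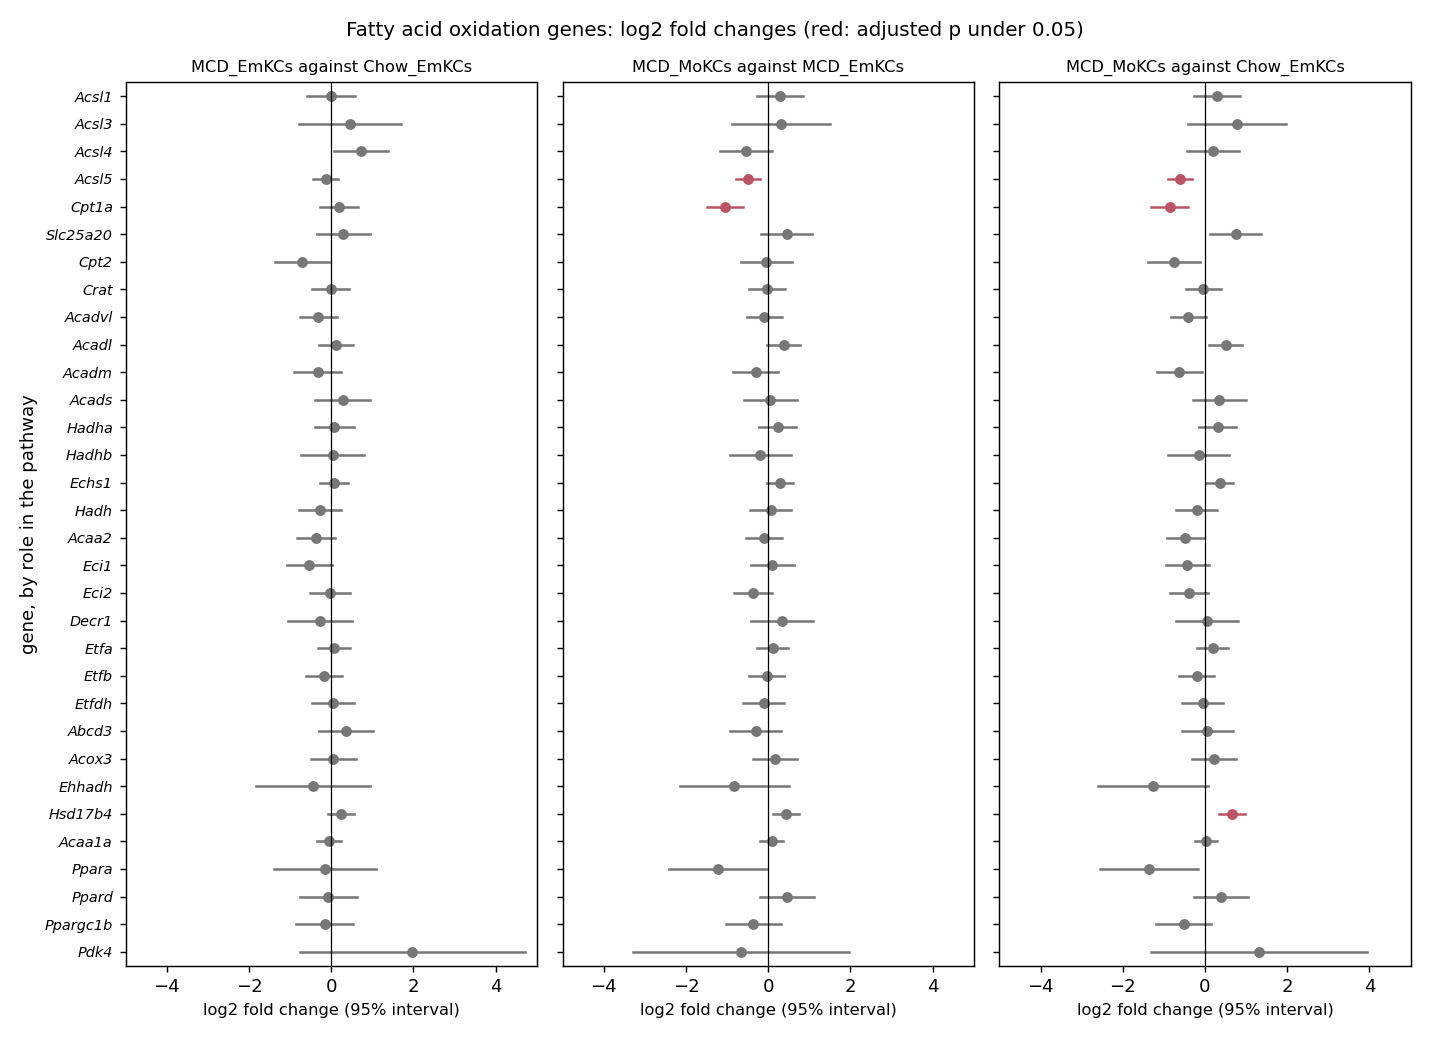
Log2 fold change (x axis, with its 95% interval as a bar) of each of the 32 fatty acid oxidation genes (y axis, ordered by role from activation to regulators) in the 3 comparisons. Red marks an adjusted p under 0.05: no gene in MCD_EmKCs against Chow_EmKCs, Acsl5 and Cpt1a in MCD_MoKCs against MCD_EmKCs, and these 2 with Hsd17b4 in MCD_MoKCs against Chow_EmKCs.

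Per kb of transcript, the levels of the 32 genes spanned more than 2 orders of magnitude. Etfb, the beta subunit of the electron transfer flavoprotein, had a mean of 1450 normalised reads per kb in Chow_EmKCs, 1297 in MCD_EmKCs and 1250 in MCD_MoKCs. Acaa1a, the peroxisomal thiolase, had 1424, 1361 and 1441, and the ranges of these genes overlapped, so their order is not resolved. Hsd17b4, at 997, 1180 and 1578, and Acsl5, at 791, 723 and 525, were the next in the embryo-derived groups. At the other end, Pdk4 had 13.3, 11.3 and 9.34 normalised reads per kb, Ppara 39.97, 34.5 and 19.7, and Ehhadh 42.3, 37.2 and 19.7. The Etfb and Acaa1a levels carry a limit of annotation. Of the Etfb exon bases, 53% also belong to Gm45233 on the same strand, and Acaa1a has the near-identical copy Acaa1b, between which the counting could split reads.

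**Figure D2:**
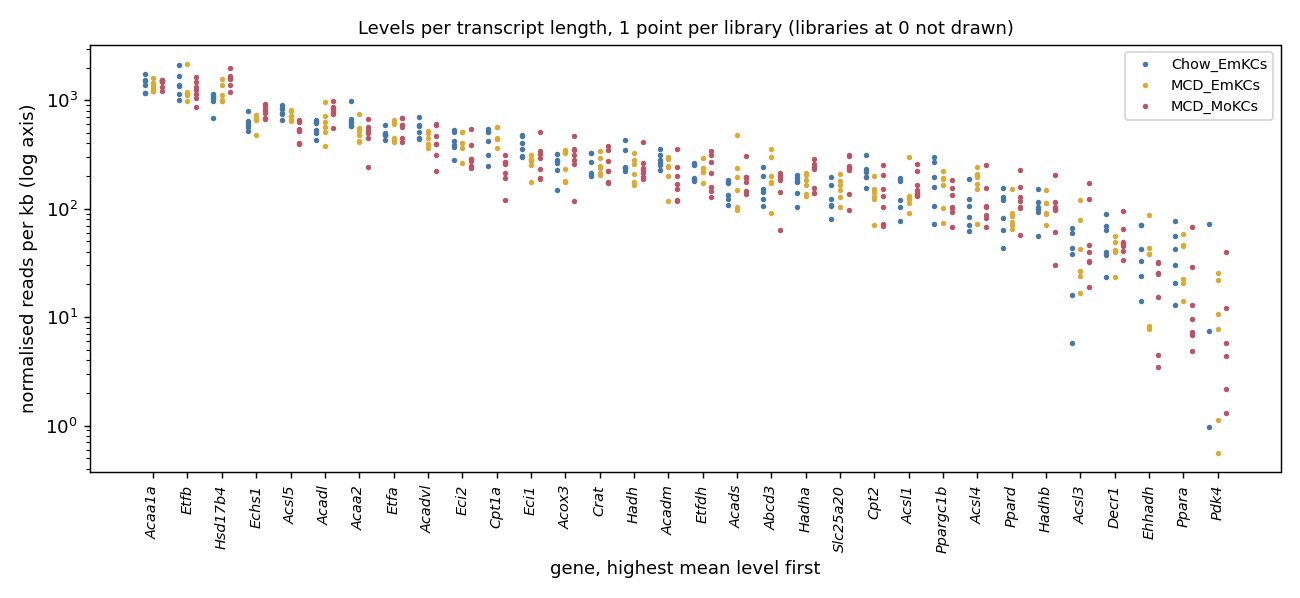
Normalised reads per kb of transcript (y axis, log scale) for each of the 32 genes (x axis, highest overall mean first), 1 point per library and colour by group; libraries at 0 are not drawn. Etfb, Acaa1a and Hsd17b4 lie at the top, Ppara and Pdk4 at the bottom, and the 3 groups overlap for most genes.

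Fatty acid activation is represented by 4 long-chain acyl-CoA synthetases, of which 1, Acsl5, was lower in monocyte-derived cells. Acsl5 encodes a synthetase of mitochondria and endoplasmic reticulum (ENSMUSG00000024981, chromosome 19, 55251938 to 55297720, mm10). Its lowest, median and highest libraries had 2777, 3391 and 3846 normalised reads for Chow_EmKCs, 2705, 3040 and 3478 for MCD_EmKCs and 1661, 2218 and 2796 for MCD_MoKCs. MCD_MoKCs 5, at 2796, reached into the ranges of both embryo-derived groups, while the other 6 lay below every embryo-derived library. The log2 fold change was -0.48 (SE 0.14, adjusted p = 0.0284) against MCD_EmKCs and -0.61 (SE 0.14, adjusted p = 0.00292) against Chow_EmKCs. The first of these calls was not stable: it was lost when MCD_EmKCs 4, MCD_EmKCs 6, MCD_MoKCs 1 or MCD_MoKCs 3 was left out (adjusted p = 0.0668, 0.0701, 0.0643 and 0.0663), and without MCD_MoKCs 1 to 3 (log2 fold change -0.37, adjusted p = 0.160). The second kept its side of the threshold without MCD_MoKCs 1 to 3 (-0.49, adjusted p = 0.0234). Within the library number sets the difference from Chow_EmKCs was -0.62 (adjusted p = 0.0968) and -0.58 (adjusted p = 0.0747), and that from MCD_EmKCs was -0.39 (adjusted p = 0.357) and -0.56 (adjusted p = 0.136). Of the Acsl5 exon bases, 8.31% overlap Zdhhc6 on the opposite strand, and the sources do not say whether counting used the strand.

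The other 3 synthetases did not pass in any comparison. Acsl1, the main synthetase of fat tissue and liver, had means of 559 ± 190 (SD, n = 6) normalised reads for Chow_EmKCs, 575 ± 298 (n = 6) for MCD_EmKCs and 670 ± 195 (n = 7) for MCD_MoKCs. Acsl4, which prefers arachidonic acid and has a well-known role in ferroptosis, had 556 ± 243, 915 ± 310 and 646 ± 332. Its log2 fold change in MCD_EmKCs against Chow_EmKCs was 0.73 (95% interval 0.07 to 1.39, adjusted p = 0.251). Acsl3, a synthetase of lipid droplets, had 151 ± 94.5, 204 ± 160 and 263 ± 227. As a share of the 4 genes' reads per kb, Acsl5 made up 73.8 ± 5.96% in Chow_EmKCs, 66.5 ± 7.97% in MCD_EmKCs and 59.4 ± 8.69% in MCD_MoKCs, so it was the main synthetase transcript of the 4 in each group.

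The carnitine shuttle held the smallest adjusted p among the 32 genes: Cpt1a, the liver-type carnitine palmitoyltransferase of the outer mitochondrial membrane, was lower in MCD_MoKCs (ENSMUSG00000024900, chromosome 19, 3322334 to 3385733, mm10). Its lowest, median and highest libraries had 1069, 2005 and 2342 normalised reads for Chow_EmKCs, 1572, 1923 and 2471 for MCD_EmKCs and 518, 1116 and 1350 for MCD_MoKCs. Every MCD_MoKCs library lay below every MCD_EmKCs library, a separation that 4.86% of all genes tested showed in that comparison, while MCD_MoKCs overlapped with Chow_EmKCs, whose lowest library was Chow_EmKCs 3. The mean of MCD_MoKCs was 0.497 times that of MCD_EmKCs and 0.552 times that of Chow_EmKCs. The log2 fold change was -1.05 (SE 0.22, adjusted p = 0.00152) against MCD_EmKCs and -0.86 (SE 0.22, adjusted p = 0.00554) against Chow_EmKCs, and 0.19 (SE 0.22, 95% interval -0.27 to 0.65, adjusted p = 0.743) in MCD_EmKCs against Chow_EmKCs.

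Within MCD_MoKCs, Cpt1a was lowest in libraries 1 to 3, at 836, 518 and 929 normalised reads, against 1116 to 1350 in libraries 4 to 7. Without MCD_MoKCs 1 to 3, the difference from MCD_EmKCs was -0.75 (adjusted p = 0.0348) and kept its call, and that from Chow_EmKCs was -0.56 (adjusted p = 0.0909) and lost it. No single library ended either call: leaving out each in turn gave adjusted p-values of 0.000759 to 0.00566 against MCD_EmKCs and 0.00127 to 0.0190 against Chow_EmKCs. Within the library number sets, the difference from MCD_EmKCs was -1.14 (adjusted p = 0.0366) and -0.73 (adjusted p = 0.160), and that from Chow_EmKCs was -1.001 (adjusted p = 0.0540) and -0.49 (adjusted p = 0.289).

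**Figure D3:**
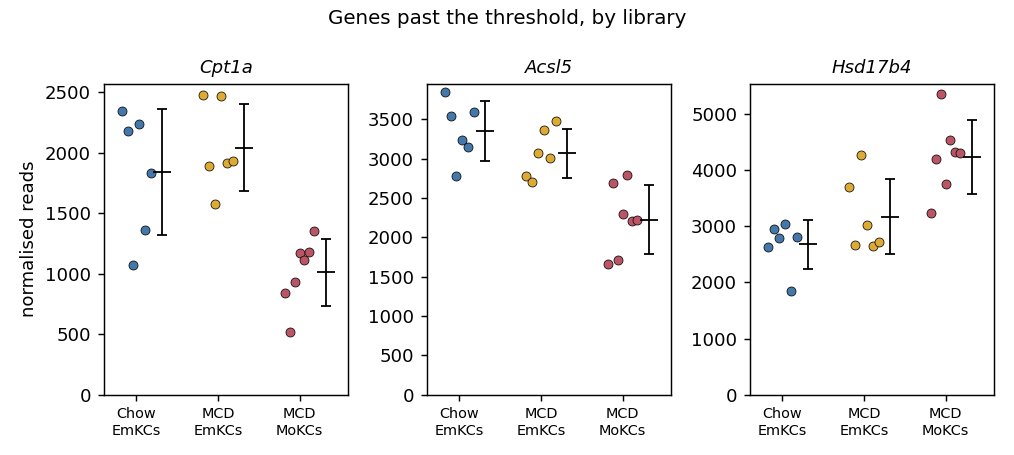
Normalised reads (y axis, starting at 0) of Cpt1a, Acsl5 and Hsd17b4 in each library (points), with the group mean and SD (bars; n = 6, 6 and 7). Cpt1a lies below every MCD_EmKCs library in all MCD_MoKCs, Acsl5 overlaps between the groups, and Hsd17b4 lies above every Chow_EmKCs library in all MCD_MoKCs.

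The sequences upstream of Cpt1a and Acsl5 are shown because these 2 genes fell together in MCD_MoKCs. They are the 250 bases before the RefSeq start of each gene (GRCm38.p6, plus strand, 5′ to 3′), chr19:3323051-3323300 for Cpt1a and chr19:55253119-55253368 for Acsl5. Capitals mark matches, on either strand, to the motifs spelled out with the counts over all promoters.
Cpt1a: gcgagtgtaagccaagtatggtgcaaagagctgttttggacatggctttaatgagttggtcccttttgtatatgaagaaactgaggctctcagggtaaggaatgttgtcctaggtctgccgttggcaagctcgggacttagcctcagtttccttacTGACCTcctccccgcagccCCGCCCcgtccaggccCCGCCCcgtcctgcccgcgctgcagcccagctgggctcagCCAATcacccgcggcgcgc
Acsl5: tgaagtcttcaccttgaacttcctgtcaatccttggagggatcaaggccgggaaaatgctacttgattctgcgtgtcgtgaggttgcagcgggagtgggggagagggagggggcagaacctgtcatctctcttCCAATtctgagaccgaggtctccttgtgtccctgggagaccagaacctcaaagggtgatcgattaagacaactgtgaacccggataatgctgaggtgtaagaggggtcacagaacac
The Cpt1a stretch has a GC content of 59.6% and holds 4 matches: 1 half-site, read on the other strand, 2 GC boxes, also on the other strand, and 1 CCAAT box. The Acsl5 stretch has a GC content of 52.8% and holds 1 match, a CCAAT box.

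Promoter windows of 300 bases, 250 before and 50 from the start, were matched for 27 of the 32 genes (29 windows). A direct repeat of AGGTCA with 1 base between the copies, the usual PPAR element, was in 0 of the 29 windows and in 0.0396% of 32851 windows of all genes. The nuclear receptor half-site AGGTCA was in 4 windows, those of Acadm, Acadvl, Cpt1a and Echs1, or 13.8% against 16.3% of all windows. The letters TCAAGGTCA of estrogen-related receptor sites, which contain the half-site, were in 0 windows (0.423% of all), and the E-box CACGTG in 0 (7.15% of all). CCAAT was in 13 windows (44.8% against 37.4%), and the GC box GGGCGG in 21 (72.4% against 35.7%). The NRF1 core was in 2 windows, those of Etfdh and Ppara (6.9% against 0.971%). These matches describe letters in a window and not binding.

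The other members of the shuttle did not pass. Slc25a20, the carnitine-acylcarnitine translocase, had lowest, median and highest values of 143, 206 and 349 normalised reads for Chow_EmKCs, 185, 280 and 376 for MCD_EmKCs and 175, 425 and 561 for MCD_MoKCs. Its log2 fold change in MCD_MoKCs against Chow_EmKCs was 0.75 (SE 0.30, adjusted p = 0.0947), and it passed with DESeq2 (adjusted p = 0.0440), without MCD_MoKCs 1 (0.93, adjusted p = 0.0246) and without MCD_MoKCs 1 to 3 (1.11, adjusted p = 0.0142). Cpt2, the inner-membrane transferase, had 368, 492 and 745 in Chow_EmKCs, 167, 326 and 477 in MCD_EmKCs, and 163, 311 and 595 in MCD_MoKCs. Its log2 fold change was -0.71 (adjusted p = 0.258) in MCD_EmKCs and -0.75 (adjusted p = 0.0991) in MCD_MoKCs, each against Chow_EmKCs, and the second passed without MCD_MoKCs 2 (-0.91, adjusted p = 0.0380). Crat, which moves short acyl groups between carnitine and coenzyme A, had means of 1094, 1080 and 1089, with 95% intervals of -0.46 to 0.43 and -0.47 to 0.39 for the log2 differences of MCD_EmKCs and MCD_MoKCs from Chow_EmKCs.

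The 4 acyl-CoA dehydrogenases, which carry out the first step of each round on very long, long, medium and short chains, did not pass in any comparison. Acadvl, for very long chains, had means of 1182 ± 218 normalised reads for Chow_EmKCs, 947 ± 132 for MCD_EmKCs and 927 ± 303 for MCD_MoKCs, but 42.9% of its exon bases overlap Dvl2 on the opposite strand. Acadl, for long chains, had 1072 ± 170, 1205 ± 385 and 1525 ± 259, a log2 fold change of 0.50 (SE 0.19, adjusted p = 0.0761) in MCD_MoKCs against Chow_EmKCs. Acadm, for medium chains, had 578 ± 96.2, 475 ± 136 and 397 ± 173, a log2 fold change of -0.63 (SE 0.27, adjusted p = 0.117) in the same comparison. These near-threshold values moved with single libraries: Acadl passed without MCD_EmKCs 1 (adjusted p = 0.0491) or MCD_MoKCs 4 (adjusted p = 0.0389), and Acadm without MCD_MoKCs 5 (adjusted p = 0.0340). Acads, for short chains, had 281 ± 58.8, 393 ± 263 and 361 ± 105. The estimates for the medium and long chain enzymes thus had opposite signs.

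The genes of hydration, the second dehydrogenation and thiolysis, 5 in all, did not pass either. Hadha and Hadhb encode the alpha and beta subunits of the mitochondrial trifunctional protein and are divergent neighbours on chromosome 5. Hadha had means of 662 ± 149, 694 ± 139 and 833 ± 244 normalised reads in Chow_EmKCs, MCD_EmKCs and MCD_MoKCs, and Hadhb 212 ± 63.9, 214 ± 55.0 and 209 ± 112. Echs1, the short-chain enoyl-CoA hydratase, had 966 ± 145, 1017 ± 140 and 1240 ± 150, with a log2 fold change of 0.36 (95% interval 0.04 to 0.69, adjusted p = 0.127) in MCD_MoKCs against Chow_EmKCs. Hadh, the short-chain hydroxyacyl-CoA dehydrogenase, had 511 ± 151, 423 ± 112 and 444 ± 136. Acaa2, the thiolase, had 1027 ± 232, 794 ± 186 and 753 ± 199, with a log2 fold change of -0.48 (95% interval -0.92 to -0.03, adjusted p = 0.144) in the same comparison.

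The auxiliary enzymes that prepare unsaturated chains and the electron carriers showed values of the same kind, with 0 of 6 genes past the threshold in each comparison. Eci1, a mitochondrial enoyl-CoA isomerase, had 437 ± 88.3 normalised reads for Chow_EmKCs, 301 ± 53.5 for MCD_EmKCs and 337 ± 127 for MCD_MoKCs (log2 fold change -0.53 in MCD_EmKCs against Chow_EmKCs, 95% interval -1.08 to 0.01, adjusted p = 0.322). Eci2, a second isomerase, had 728 ± 161, 716 ± 166 and 563 ± 186, and the dienoyl-CoA reductase gene Decr1 had 159 ± 73.4, 124 ± 32.9 and 159 ± 60.3. Among the carriers, Etfa, the alpha subunit of the flavoprotein, had 691 ± 76.1, 737.5 ± 153 and 793 ± 145, and its partner Etfb had 1295 ± 361, 1158 ± 382 and 1116 ± 234. Etfdh, which passes the electrons to ubiquinone, had 528 ± 93.9, 545 ± 90.9 and 533 ± 200. The 95% intervals of all 3 carrier genes stayed within 1 log2 unit of 0 in every comparison.

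Of the 5 peroxisomal genes, 1 was higher in monocyte-derived cells. Hsd17b4 encodes the D-bifunctional protein, which carries out hydration and the second dehydrogenation of very long and branched chains (ENSMUSG00000024507). Its lowest, median and highest libraries had 1844, 2802 and 3044 normalised reads for Chow_EmKCs, 2652, 2868 and 4257 for MCD_EmKCs and 3233, 4299 and 5356 for MCD_MoKCs. Every MCD_MoKCs library lay above every Chow_EmKCs library, a separation shown by 7.97% of all genes tested in that comparison, whereas MCD_EmKCs overlapped with both groups. The mean of MCD_MoKCs was 1.58 times that of Chow_EmKCs, and the log2 fold change was 0.67 (SE 0.15, adjusted p = 0.00252). Against MCD_EmKCs it was 0.43 (SE 0.15, adjusted p = 0.0744), which passed without MCD_EmKCs 3 (0.52, adjusted p = 0.0287) or MCD_MoKCs 1 (0.49, adjusted p = 0.0441). MCD_EmKCs against Chow_EmKCs gave 0.24 (95% interval -0.09 to 0.56, adjusted p = 0.503). The call against Chow_EmKCs held without MCD_MoKCs 1 to 3 (0.67, adjusted p = 0.00983) and without each library in turn (adjusted p = 0.00131 to 0.00937). Within the library number sets it was 0.58 (adjusted p = 0.104) and 0.78 (adjusted p = 0.0502).

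The remaining peroxisomal members did not pass. Ehhadh, the L-bifunctional enzyme and a textbook target of PPAR-alpha, was low, with lowest, median and highest values of 42.03, 113 and 210 normalised reads for Chow_EmKCs, 23.3, 114 and 259 for MCD_EmKCs and 10.3, 74.3 and 96.8 for MCD_MoKCs (log2 fold change -1.26 in MCD_MoKCs against Chow_EmKCs, SE 0.65, adjusted p = 0.205). The estimates for the L- and D-bifunctional genes had opposite signs, and the L-bifunctional value did not pass the threshold. Abcd3, an importer of the peroxisomal membrane, had means of 560 ± 178, 756 ± 335 and 597 ± 184. Acox3, a peroxisomal oxidase of branched chains, had 1005 ± 230, 1056 ± 309 and 1219 ± 422. Acaa1a had 2509 ± 402, 2398 ± 280 and 2540 ± 212, with 95% intervals of -0.34 to 0.23, -0.19 to 0.36 and -0.25 to 0.30 for its 3 log2 fold changes, and 6.57% of its exon bases overlap Myd88 on the opposite strand.

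Among 18 further genes of peroxisomal oxidation tested, the calls in MCD_MoKCs were all lower. In MCD_MoKCs against Chow_EmKCs, 7 of 18 were lower and 0 higher, where 8.08% of all genes were lower, with a median log2 fold change of -0.95 against -0.01 for all genes. In MCD_MoKCs against MCD_EmKCs, 3 were lower and 0 higher, where 4.9% of all genes were lower (median -0.27 against 0.02; 1 lower and 1 higher without MCD_MoKCs 1 to 3), and in MCD_EmKCs against Chow_EmKCs, 0 passed (median -0.38 against -0.04). Scp2, the sterol carrier and thiolase for branched chains, had lowest, median and highest values of 2075, 2519 and 2883 normalised reads for Chow_EmKCs, 1532, 1802 and 2013 for MCD_EmKCs and 912, 1179 and 1326 for MCD_MoKCs. The 3 groups did not overlap for Scp2, and its log2 fold change was -0.67 (SE 0.14, adjusted p = 0.00196) against MCD_EmKCs and -1.15 (SE 0.14, adjusted p = 9.69e-07) against Chow_EmKCs, while MCD_EmKCs against Chow_EmKCs gave -0.48 (adjusted p = 0.0639). Of the 3 calls against MCD_EmKCs, that of Scp2 held in every fit without 1 library, and it was lost in library numbers from 37 (adjusted p = 0.163). Phyh was lost without MCD_EmKCs 1, 3, 4 or 6 or MCD_MoKCs 2 (adjusted p = 0.0513 to 0.0755). Acot4 was lost without Chow_EmKCs 1, 3, 4, 5 or 6, MCD_EmKCs 2 to 6, or MCD_MoKCs 1, 2, 4 or 7. Its adjusted p in these fits was 0.0504 to 0.105. Both were lost without MCD_MoKCs 1 to 3 (adjusted p = 0.0908 and 0.117). Acot4 was not called by edgeR (adjusted p = 0.335) or DESeq2 (adjusted p = 0.251).

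Phyh, the hydroxylase that starts the breakdown of phytanic acid, had lowest, median and highest values of 987, 1254 and 1508 normalised reads for Chow_EmKCs, 557, 982 and 1354 for MCD_EmKCs and 543, 595 and 726 for MCD_MoKCs, and fell by 1.03 on the log2 scale against Chow_EmKCs (SE 0.18, adjusted p = 0.000186). Its MCD_MoKCs and Chow_EmKCs libraries did not overlap. Acaa1b, the second thiolase gene, fell by 1.74 on the log2 scale in the same comparison (SE 0.44, adjusted p = 0.00573). Crot, the carnitine octanoyltransferase that exports shortened chains, was also lower, with a mean of 351 against 647 normalised reads (log2 fold change -1.02, SE 0.29, adjusted p = 0.0129), again with no overlap. Of the 7 genes called lower against Chow_EmKCs, 6 held in every fit without 1 library, and Decr2 did not (adjusted p = 0.0511 to 0.109 in the 10 fits that lost it). Without MCD_MoKCs 1 to 3, 5 of 18 were lower, and within the library number sets 2 and 2 of these 7 passed. In numbers from 37, Phyh was among those lost (-1.01, adjusted p = 0.0711). Genes of peroxisome biogenesis gave 1 lower gene of 16, Pex6, in MCD_MoKCs against Chow_EmKCs, a share below the 8.08% of all genes. That call was lost without Chow_EmKCs 5 (adjusted p = 0.0606) or Chow_EmKCs 6 (adjusted p = 0.0503). It was also lost without MCD_MoKCs 1 to 3 (-0.54, adjusted p = 0.150) and in both library number sets (adjusted p = 0.136 and 0.341). Against MCD_EmKCs, 1 of the 16 was lower in MCD_MoKCs, Pex13, where 4.9% of all genes were lower. The Pex13 call was lost without MCD_MoKCs 1 to 3 (adjusted p = 0.121) and in both library number sets (adjusted p = 0.434 and 0.219).

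**Figure D4:**
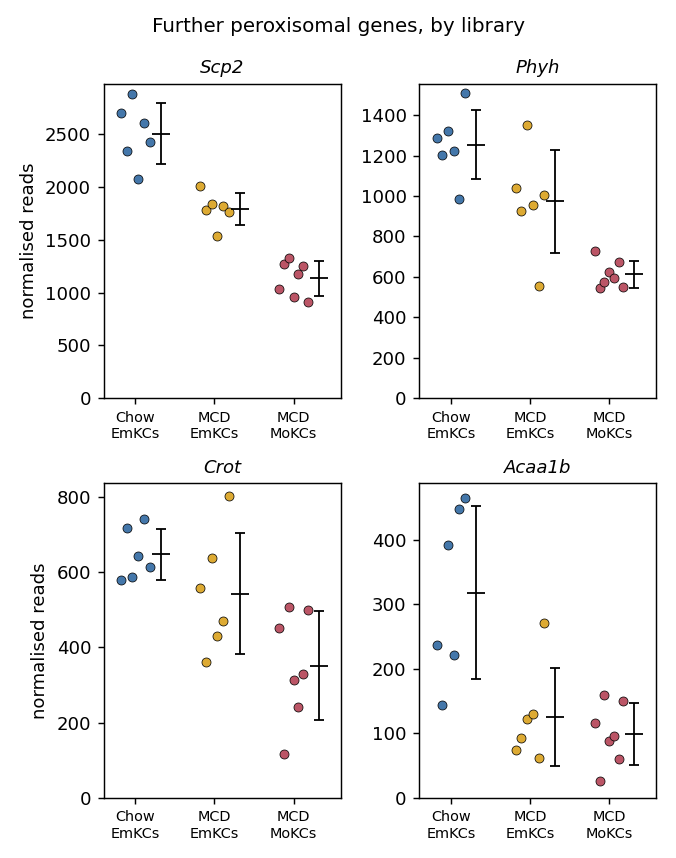
Normalised reads (y axis, starting at 0) of 4 further peroxisomal genes in each library (points), with the group mean and SD (bars; n = 6, 6 and 7). Scp2 separates the 3 groups, Phyh and Crot separate MCD_MoKCs from Chow_EmKCs, and Acaa1b is lower in MCD_MoKCs than in Chow_EmKCs with overlap.

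Hepatocytes, which express many of these genes at high levels, left a varying trace in the libraries. The 18 hepatocyte markers together took 0.0334 to 0.0903% of all reads from Chow_EmKCs, 0.00471 to 0.0280% in MCD_EmKCs and 0.00399 to 0.0101% in MCD_MoKCs. The difference from Chow_EmKCs was past the threshold for both other groups (exact permutation test of the difference of means, adjusted p = 0.00699 and 0.00385), and MCD_MoKCs and MCD_EmKCs overlapped (adjusted p = 0.482). Of the 18 markers, 11 were lower in MCD_EmKCs than in Chow_EmKCs, 16 in MCD_MoKCs than in Chow_EmKCs, and 2 in MCD_MoKCs than in MCD_EmKCs, and none was at 0 in every library of a group. The part of hepatocyte RNA in the lower values against Chow_EmKCs was not tested. In bulk samples, fewer cells of a type and less RNA per cell cannot be told apart.

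Other traces moved with the groups as well. Markers of monocytes and recruited macrophages took 0.0108 to 0.0164% of all reads from Chow_EmKCs, 0.00797 to 0.0110% in MCD_EmKCs and 0.0376 to 0.0681% in MCD_MoKCs, with 6 of 8 markers higher in MCD_MoKCs than in MCD_EmKCs, and Ly6c2 at 0 in every MCD_EmKCs library. Mitochondrially encoded genes took a mean of 0.736% of all reads from Chow_EmKCs, 0.245% in MCD_EmKCs and 0.432% in MCD_MoKCs (exact permutation tests, adjusted p = 0.00699 for MCD_EmKCs and 0.0395 for MCD_MoKCs against Chow_EmKCs, and 0.0683 between them). By the same test, the shares of cholangiocyte, T and NK cell, neutrophil and platelet markers were higher in MCD_MoKCs than in either other group (adjusted p = 0.00385 to 0.0395), and that of platelets was also higher in MCD_EmKCs than in Chow_EmKCs (adjusted p = 0.00699). Of the 5 cholangiocyte markers, only 2 reached the filter, and 1 was higher in each comparison of MCD_MoKCs. In each group, 4 of the 5 were at 0 in at least 1 library, so that share may rest on few genes. The share of B and plasma cell markers was higher in MCD_MoKCs than in MCD_EmKCs (adjusted p = 0.0128), and that of stellate cell markers was lower in MCD_MoKCs than in both (adjusted p = 0.00801 and 0.0132). The summed share of sinusoidal endothelial markers did not pass in any comparison, although 6 of its 8 genes were higher and 2 lower in MCD_MoKCs than in Chow_EmKCs (median log2 fold change 2.10). The part of any of these in the results above was not tested.

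The regulators in the list, 4 genes, did not pass in any comparison. Ppara, the receptor that drives fatty acid oxidation in liver, had lowest, median and highest values of 43.8, 125 and 264 normalised reads for Chow_EmKCs, 48.4, 115 and 201 for MCD_EmKCs and 16.7, 32.8 and 229 for MCD_MoKCs. Its log2 fold change in MCD_MoKCs was -1.21 (SE 0.58, adjusted p = 0.207) against MCD_EmKCs and -1.36 (SE 0.58, adjusted p = 0.118) against Chow_EmKCs, and the second passed without MCD_MoKCs 5, the library at 229 (-1.75, adjusted p = 0.0270). Ppard, the delta receptor, had means of 324 ± 139, 294 ± 103 and 418 ± 173, and Ppargc1b, the PGC-1-beta coactivator, 670 ± 326, 576 ± 212 and 439 ± 146. Pdk4, the kinase that shuts off pyruvate oxidation when fat is burned, was near 0 in most libraries: 3 of 6 Chow_EmKCs and 1 of 7 MCD_MoKCs were at 0, and its means were 46.5 ± 99.9, 39.3 ± 36.4 and 32.5 ± 48.5. Its fitted log2 fold change of 1.97 in MCD_EmKCs against Chow_EmKCs (SE 1.33, adjusted p = 0.506) depends on the pseudocount, and the ratio of means went the other way, at 0.845.

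Outside the 32 genes, 23 further PPAR, coactivator and energy-sensing regulators were tested, and Pparg was among those that changed. In MCD_EmKCs against Chow_EmKCs, 1 was higher and 0 lower, where 4.08% of all genes passed. In MCD_MoKCs against MCD_EmKCs, 2 were higher and 3 lower (10.5% of all genes passed), and in MCD_MoKCs against Chow_EmKCs, 2 were higher and 4 lower (16.8% of all genes), with medians of 0.10, -0.03 and -0.25. Pparg, the gamma receptor of fat storage and macrophage lipid handling, had lowest, median and highest values of 168, 334 and 653 normalised reads for Chow_EmKCs, 646, 841 and 1151 for MCD_EmKCs and 1181, 1415 and 1832 for MCD_MoKCs. Chow_EmKCs and MCD_EmKCs touched at a single pair of libraries, and MCD_MoKCs lay above both. Pparg rose by 1.39 on the log2 scale (SE 0.25, adjusted p = 0.000906) in MCD_EmKCs and by 2.19 (SE 0.24, adjusted p = 1.37e-07) in MCD_MoKCs, each against Chow_EmKCs. Its difference of 0.80 (SE 0.24, adjusted p = 0.0312) between the cell types on the diet was lost without MCD_EmKCs 1, 2 or 4 or MCD_MoKCs 2, 4 or 6 (adjusted p = 0.0510 to 0.0805) and without MCD_MoKCs 1 to 3 (0.79, adjusted p = 0.131). In library numbers from 37, the rise of Pparg in MCD_EmKCs was 1.33 (adjusted p = 0.0936). Of the regulator calls, 1 and 0 of 1, 4 and 2 of 5, and 2 and 3 of 6 passed in the sets up to 33 and from 37.

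Rxra, the heterodimer partner of the PPARs, had lowest, median and highest values of 4744, 9111 and 10999 normalised reads for Chow_EmKCs, 6194, 8624 and 11996 for MCD_EmKCs and 3915, 4598 and 5985 for MCD_MoKCs. MCD_MoKCs lay below every MCD_EmKCs library, and the log2 fold change was -0.92 (SE 0.17, adjusted p = 0.00065) there and -0.82 (SE 0.17, adjusted p = 0.00118) against Chow_EmKCs. Ncoa1, a coactivator of nuclear receptors, fell by 1.34 on the log2 scale (SE 0.24, adjusted p = 0.000303) against MCD_EmKCs, with overlap at the edge. Prkag2, a gamma subunit of the energy sensor AMPK, rose by 2.09 (SE 0.41, adjusted p = 0.000962) against MCD_EmKCs, from a mean of 93.2 to 409 normalised reads. Without MCD_MoKCs 1 to 3, the counts against MCD_EmKCs were 1 higher and 2 lower and those against Chow_EmKCs 2 higher and 1 lower. Ppargc1a, the PGC-1-alpha coactivator, did not reach the filter and was at 0 in most libraries.

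**Figure D5:**
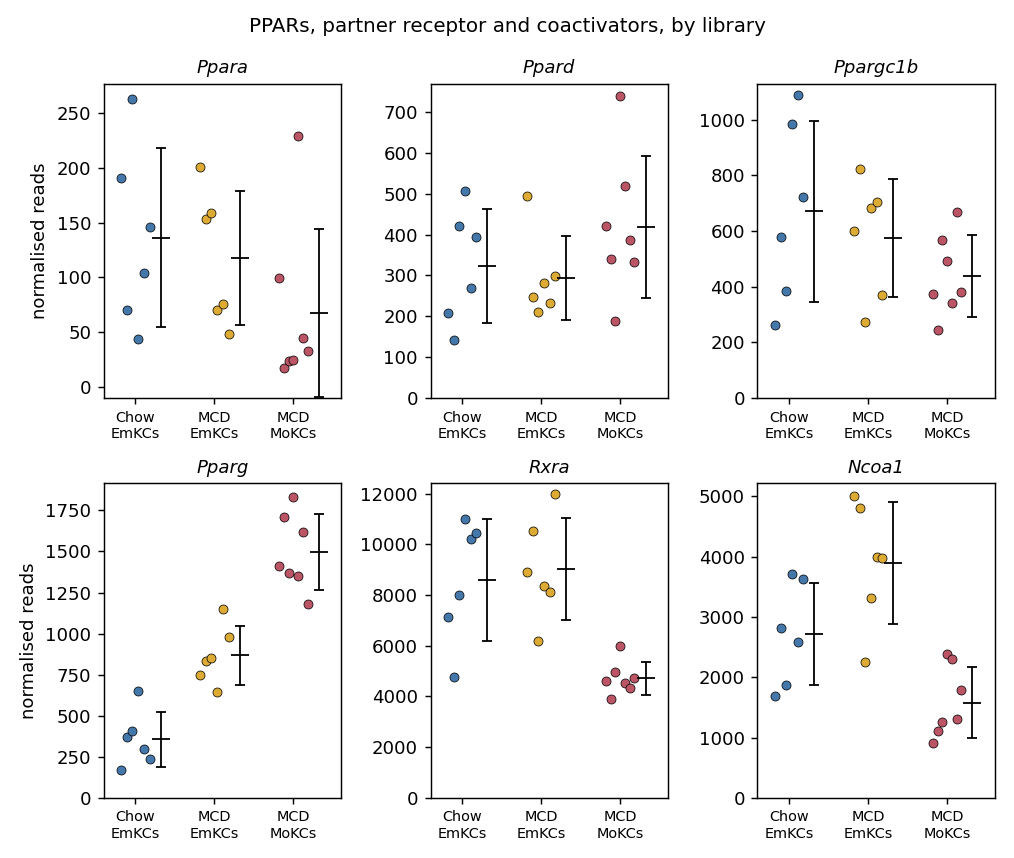
Normalised reads (y axis) of the receptors Ppara, Ppard, Pparg and Rxra and the coactivators Ppargc1b and Ncoa1 in each library (points), with the group mean and SD (bars; n = 6, 6 and 7). Pparg rises from Chow_EmKCs over MCD_EmKCs to MCD_MoKCs, Rxra and Ncoa1 are lowest in MCD_MoKCs, and the groups overlap for Ppara, Ppard and Ppargc1b.

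PPAR target genes with roles outside oxidation changed in both directions. Of 15 tested, 3 were higher and 2 lower in MCD_EmKCs against Chow_EmKCs, 3 and 3 in MCD_MoKCs against MCD_EmKCs, and 5 and 4 in MCD_MoKCs against Chow_EmKCs, where 4.08%, 10.5% and 16.8% of all genes passed. The median log2 fold changes of the list were -0.48, 0.26 and -0.41. Cd36, the fatty acid uptake receptor, had lowest, median and highest values of 658, 1185 and 1423 normalised reads for Chow_EmKCs, 4853, 7112 and 8652 for MCD_EmKCs and 6007, 7422 and 11955 for MCD_MoKCs. Both groups on the diet lay above every chow library, with log2 fold changes of 2.66 (SE 0.20, adjusted p = 2.11e-09) and 2.92 (SE 0.20, adjusted p = 1.48e-11). Angptl4, an inhibitor of lipoprotein lipase, rose by 1.88 (SE 0.33, adjusted p = 0.000701) in MCD_EmKCs, and Plin2, the coat protein of lipid droplets, by 0.71 (SE 0.14, adjusted p = 0.00319), both without overlap. Txnip, a regulator of glucose uptake, fell by 0.96 (SE 0.17, adjusted p = 0.00057) in MCD_EmKCs and by a further 0.87 (SE 0.16, adjusted p = 0.000397) in MCD_MoKCs against MCD_EmKCs. In library numbers from 37, Angptl4, Plin2 and Txnip lost their calls in MCD_EmKCs against Chow_EmKCs (adjusted p = 0.0521, 0.0673 and 0.0797). Plin2 also lost it in numbers up to 33 (adjusted p = 0.120).

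The fatty acid binding proteins separated the cell types. Fabp5 had lowest, median and highest values of 18, 33.7 and 58.4 normalised reads for Chow_EmKCs, 14.2, 98.4 and 142 for MCD_EmKCs and 1731, 3915 and 6788 for MCD_MoKCs (log2 fold change 5.63 against MCD_EmKCs, SE 0.45, adjusted p = 1.32e-09). Fabp4 was also higher in every MCD_MoKCs library, at 631 to 1906, than in any MCD_EmKCs library, at 20.7 to 87.4 (4.34, SE 0.71, adjusted p = 9.99e-05). Acot1, a cytosolic acyl-CoA thioesterase and a target of PPAR-alpha, went the other way, at 135 to 709 in MCD_MoKCs against 861 to 1325 in MCD_EmKCs (-1.97, SE 0.30, adjusted p = 4.15e-05). In library numbers from 37, Fabp4 and Acot1 did not pass (adjusted p = 0.160 and 0.114). Of the PPAR target calls, 3 and 1 of 5, 4 and 2 of 6, and 7 and 7 of 9 passed in the sets up to 33 and from 37.

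Other parts of fatty acid metabolism were examined in the same way. Among 19 further genes of mitochondrial oxidation, including ketone body and odd-chain metabolism, 0 passed in the first 2 comparisons. In MCD_MoKCs against Chow_EmKCs, 1 was higher, Oxct1, which lets cells use ketone bodies (0.66, SE 0.18, adjusted p = 0.0110), and 3 were lower, among them Mcee of propionate breakdown (-1.04, SE 0.26, adjusted p = 0.00534), whose libraries did not overlap. These 4 of 19 compare with 16.8% of all genes, and 1 of the 4 passed in each library number set. Oxct1 lost its call without MCD_MoKCs 1 to 3 (0.50, adjusted p = 0.137). Among 12 further activation and transport genes, 3 were higher in MCD_MoKCs than in MCD_EmKCs, led by Acss1, the mitochondrial acetyl-CoA synthetase (4.04, SE 0.89, adjusted p = 0.00379), where 10.5% of all genes passed, and 1 of these 3 calls held in every fit without 1 library. Against Chow_EmKCs, 1 was higher and 2 lower in MCD_MoKCs, where 16.8% of all genes passed. Slc27a1, a fatty acid transport protein, was the higher gene (1.03, SE 0.25, adjusted p = 0.00365). The lower genes were Slc27a6, a second transport protein (-4.78, SE 1.26, adjusted p = 0.00901), and Acbd4, an acyl-CoA binding protein (-1.87, SE 0.54, adjusted p = 0.0151). Without MCD_MoKCs 1 to 3, both lost their calls (adjusted p = 0.185 and 0.122), and Slc27a6 was not called by edgeR (adjusted p = 0.102) or DESeq2 (adjusted p = 0.123). In each library number set, 1 of the 3 calls in either comparison passed. Of 12 genes of the pyruvate dehydrogenase switch, 0 passed in the first 2 comparisons and 1 in the third, Mpc1 of the pyruvate carrier (1.54, adjusted p = 0.0268). That call was lost without Chow_EmKCs 1, 2 or 3 or MCD_MoKCs 1, 5 or 7 (adjusted p = 0.0505 to 0.0693).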

How the data were processed

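Bulk RNA-seq of 19 Kupffer cell libraries was analysed from a deposited table of 33919 identifiers. The deposited values are a signal, reads divided by 1 size factor per library: 100% were whole multiples of 1 read within a tolerance of 0.001. STAR, DESeq2 and mm10 are named, per the submitters' processing notes, while the counting tool, its annotation and all versions go unnamed in the sources used. Symbols matched 29062 identifiers. Values were fitted as log2(value + 1) with limma 3.58.1 in R 4.3.3, with trended and robust variances, in 1 model of all 19 libraries with 3 contrasts. Genes were tested where 6 or more libraries reached a value of 10 (14875 genes), and calls used a Benjamini-Hochberg adjusted p under 0.05. On this scale the change of low genes is understated. Recovered reads were also tested with edgeR 4.0.16 and DESeq2 1.42.0. Exons and positions came from GENCODE (mm10), and promoters from RefSeq (GRCm38.p6). Scripts were tested on simulated data. The 32 genes, the further lists and the markers were chosen with earlier results of these data known. All 32 genes are accounted for, and at most 4 called genes per further list and comparison are named, by smallest adjusted p, with further genes named for context. Alternatives for the further lists were added after seeing the data. Results for some genes of the further lists are not reported here.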

Additional observations from a re-analysis of the deposited data

Results flagged for a closer look

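Of 96 sets of 1 gene in 1 group, 11 held a library far from the others of its group. For normally distributed values, chance alone flags about 1 in 20. The values here were not on a log scale, and the rate for them was not tested. High libraries were Acsl1 in MCD_EmKCs 1, at 1172 normalised reads against 508 in the next library, Acads in MCD_MoKCs 3 (573 against 369), and Hadh in MCD_MoKCs 1 (736 against 468). Acaa2 was high in Chow_EmKCs 3 (1487 against 1020), Etfb in MCD_EmKCs 3 (1927 against 1076), and Ppard in MCD_EmKCs 1 (494 against 298). Ppara in MCD_MoKCs 5 stood at 229 against 99.7 in the next library. Pdk4 was high in Chow_EmKCs 1 (249 against 26.1) and in MCD_MoKCs 7 (138 against 42.2). Low libraries were Echs1 in MCD_EmKCs 2 (749 against 1017) and Hsd17b4 in Chow_EmKCs 5 (1844 against 2624).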

How the results depend on the processing

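Over all alternatives, 3203 of 3229 values of the 32 genes kept their side of the threshold, 16 lost a call, 10 gained one and 0 called values reversed, while 139 uncalled values changed sign. Among fatty acid oxidation genes in MCD_MoKCs against MCD_EmKCs, 1 passed without trended or robust variances, 1 in library numbers up to 33, 0 in those from 37 and 1 without MCD_MoKCs 1 to 3, and leaving out each library gave 1 to 3. Against Chow_EmKCs, MCD_MoKCs had 0 in each library number set, and 3 to 5 with each library left out. Over all genes, library numbers up to 33 and from 37 gave 179 and 263 calls in MCD_EmKCs against Chow_EmKCs (607 with all libraries), 870 and 565 in MCD_MoKCs against MCD_EmKCs (1568), and 1257 and 1288 in MCD_MoKCs against Chow_EmKCs (2493). These fits hold fewer samples. Without MCD_MoKCs 1 to 3, 1010 genes passed against MCD_EmKCs. Leaving out each library gave 468 to 620, 1288 to 1596 and 2193 to 2590. Same-numbered libraries correlated at -0.0743 to 0.0759, so no pairing by number showed. Whether libraries share animals cannot be told from these correlations. With the replicate block, 603, 1663 and 2479 genes passed, against 597, 1524 and 2356 in the same 18 libraries without it. No call of the 32 genes changed with the block.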
